A study of Mus musculus with 12 samples.

Results

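Bladder mesenchyme, the connective tissue and muscle layer around the bladder epithelium, was compared between the embryonic days E18.5 and E14.5. The comparison takes 6 of the 12 libraries of the study, 3 per stage, chosen by their labelled tissue and stage. The other 6 are urethral mesenchyme of the same stages, which shared the estimate of spread and served to ask where the bladder's change differed. All animals were wildtype CD-1 mice, an outbred stock, and received no treatment. Each library holds tissue of the female embryos of 1 litter, pooled after the epithelium had been loosened with trypsin and pulled away, and the 3 libraries of a stage come from separate litters. No marker or reporter was used to select cells, so each library is a mixture of every cell type in the layer. The stated aim of the study was to find genes that mark each compartment of the developing bladder and urethra.

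Between these stages the outer mesenchyme becomes the detrusor, the smooth muscle that empties the bladder, and the inner mesenchyme becomes the fibroblast-rich lamina propria. Sonic hedgehog made by the epithelium signals to the mesenchyme through Patched receptors and Gli factors. Smooth muscle genes are classically driven by serum response factor (SRF), which binds CArG boxes, and by its coactivator myocardin. Genes of DNA replication are classically driven by E2F factors.

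Total counts in the 6 libraries ranged from 21495169 to 34028944, so that 3 counts equal 0.096 to 0.161 CPM (counts scaled to library size by the trimmed mean of M-values, TMM). All levels below are CPM, given in the order of replicates 1, 2 and 3 of a stage. Changes are log2 changes of E18.5 against E14.5 ± SE, and adjusted p-values come from the quasi-likelihood test of edgeR. Mesenchymal markers were present in every library, with Vim at 850 to 1090, Pdgfra at 119 to 285 and Dcn at 797 to 1319. The 8 listed Y-linked genes were too low to test, and together they held at most 11 counts in any of the 6 libraries. Of the variance, 75.3% lay on the first principal component among the 6 libraries, and E14.5 replicate 1 (score -47.4) lay nearer the E18.5 libraries (81.3 to 87.6) than did replicates 2 and 3 (-94.9 and -111.7). Each stage was deposited as a table of its own, so stage and any difference in handling or processing between the tables cannot be told apart.

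RNA of other cell types moved with stage and with that library, and its part in the results below was not tested. The summed level of the 26 epithelial markers was 2207, 614 and 427 at E14.5 and 14380, 12550 and 16790 at E18.5, and 25 of the 26 rose. Krt5, a basal cell keratin, went from 42.7, 3.73 and 2.12 to 1439, 755 and 1249. Krt8 went from 312, 94.7 and 58.8 to 1373, 1551 and 1976. No E18.5 library overlapped E14.5 for either keratin, and E14.5 replicate 1 held the most epithelial RNA of its stage. Neuronal markers summed to 783 in that library against 267 and 366 in its fellows and 191 to 337 at E18.5. Skeletal muscle markers summed to 451, 182 and 160 at E14.5 and to 3238 to 5268 at E18.5, mostly Acta1, while the muscle determination genes Myod1 and Myog lay at 0.107 or less and 0.576 or less at E18.5. The 12 mesothelial markers summed to 967 to 1898 and then to 5682 to 6225. This sum is not specific, since Krt19 and Upk1b are also in the epithelial list and Cav1 is also in the caveolae list. Of the 12 genes 7 rose, among them these shared genes and Msln and Upk3b. Aldh1a2 fell, and Wt1, Muc16, Bnc1 and Lrrn4 did not pass. Macrophage markers summed to 211 to 253 and then, without overlap, to 440 to 517. Endothelial sums overlapped, at 802 to 1254 and 689 to 852. In bulk tissue, fewer cells of a type and less RNA per cell cannot be told apart.

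**Figure D1:**
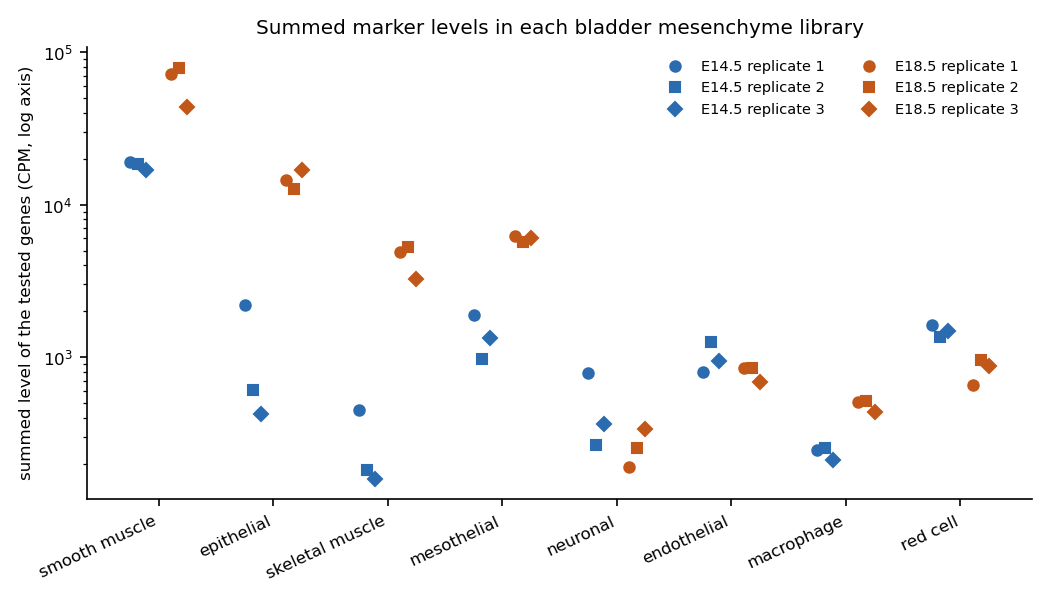
Summed level of the tested marker genes of 8 cell types (CPM, log axis) in each of the 6 bladder mesenchyme libraries; blue is E14.5, orange E18.5, and the symbol gives the replicate. Smooth muscle, epithelial, skeletal muscle, mesothelial and macrophage sums are higher in every E18.5 library than in any E14.5 library, red cell sums are lower, and E14.5 replicate 1 stands above its fellows in epithelial, skeletal muscle and neuronal RNA. The mesothelial sum includes Krt19 and Upk1b, which are also in the epithelial sum.

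Of 18805 genes tested, 4461 were higher at E18.5 (23.7%) and 4136 were lower (22%) at an adjusted p under 0.05. The libraries of the 2 stages did not overlap for 5354 genes higher at E18.5 (28.5%) and for 5141 lower (27.3%). Large changes were mostly increases: 1428 genes rose and 383 fell by at least 4-fold, and 311 rose and 45 fell by at least 16-fold. The median log2 change of all tested genes was -0.02. With changes this frequent, each gene list below is read against those percentages. Without E14.5 replicate 1 the counts were 4600 and 3966.

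**Figure D2:**
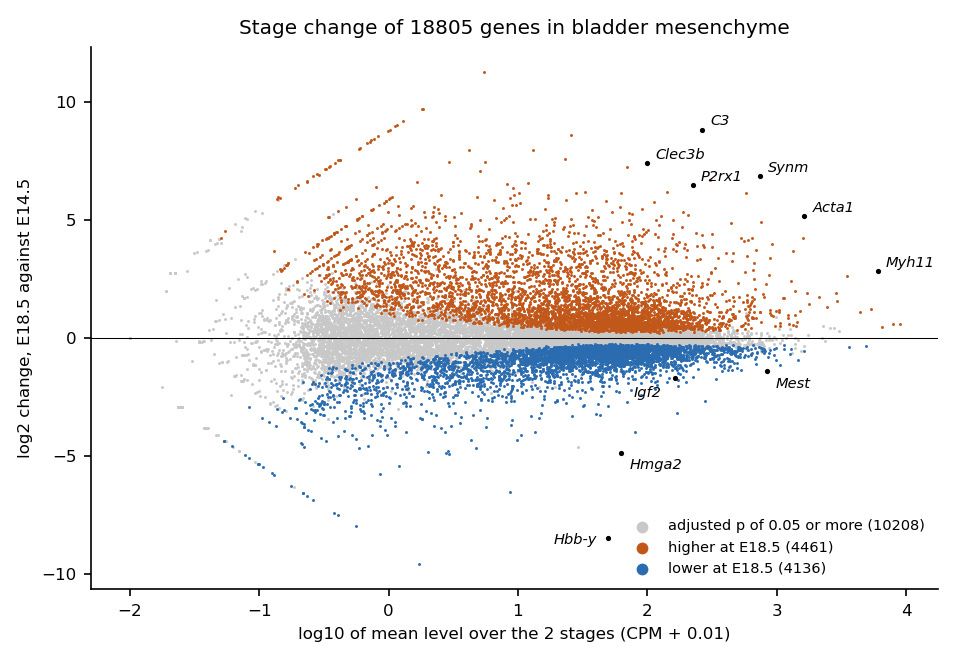
Log2 change of E18.5 against E14.5 in bladder mesenchyme for each of the 18805 genes tested (vertical axis) against the log10 of its mean level over both stages (CPM plus 0.01, horizontal axis). Orange points (4461) passed the test as higher and blue points (4136) as lower; the named increases include C3, Clec3b, P2rx1, Synm, Acta1 and Myh11, and the named decreases Hbb-y, Hmga2, Igf2 and Mest.

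Genes of the smooth muscle contractile apparatus increased nearly throughout. Of 25 tested genes 23 rose and 0 fell, with a median log2 change of 1.81, and for 24 of the 25 no E18.5 library overlapped E14.5. Their summed level went from 16730 to 19130 CPM up to 43720 to 78990 CPM. E18.5 replicate 3 was the lowest of its stage for most of these genes, yet above all E14.5 libraries.

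Filament genes led the list. Synm, which encodes the intermediate filament protein synemin, stood at 27.9, 6.51 and 3.81 CPM at E14.5 and at 1980, 1544 and 858 CPM at E18.5. The stages were far apart, and the first E14.5 library was well above its fellows. The change was 6.85 ± 0.82 (adjusted p = 9.83e-05), and 8.15 without that library. Des, the desmin gene, went from 300, 106 and 84.8 to 3108, 4251 and 1758, a change of 4.22 ± 0.66 (adjusted p = 0.000478) that became 5.00 without the same library. Here too every E18.5 library lay well above E14.5.

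Motor and thin filament genes already had high levels at E14.5 and rose further. Myh11, the smooth muscle myosin heavy chain, went from 1641, 1743 and 1013 to 14440, 10360 and 6847 (2.85 ± 0.37, adjusted p = 0.000105). Actg2, the enteric-type smooth muscle actin, went from 1099, 961 and 847 to 5809, 8183 and 3965 (2.63 ± 0.33, adjusted p = 7.52e-05). Acta2, the vascular-type smooth muscle actin, went from 2812, 2858 and 2751 to 6235, 7506 and 4180 (1.09 ± 0.25, adjusted p = 0.00399). All 3 separated the stages completely, with a smaller change for Acta2. Tagln, the transgelin gene, rose by 1.89 ± 0.38 from 1795, 808 and 1077 to 3229, 6777 and 3615, but 67.9% of its exon length is overlapped by exons on the opposite strand, and the strand setting of the counting is not given in the sources used here. Flna, which crosslinks actin, rose by 1.21 ± 0.22. Further increases were those of Cnn1 (2.41 ± 0.35), the calponin gene, Synpo2 (2.30 ± 0.29), Lmod1 (2.17 ± 0.30) and the myosin light chain kinase gene Mylk (1.58 ± 0.22). The 2 genes that did not pass were Ppp1r14a, an inhibitor of myosin phosphatase, at 82.9, 77.6 and 80.5 against 66.7, 151 and 88.5 (adjusted p = 0.292), and Mylk4, at 0.183, 0 and 0.173 against 0.224, 0.429 and 0.192 (adjusted p = 0.212).

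Promoters of this list were read to see how many hold a CArG box in the 250 bases before and 50 bases after the RefSeq start (GRCm38.p6). Of the 25 genes, 21 had a promoter in the RefSeq table, and those without one included Actg2, Myh11 and Tagln. Of all 27025 gene symbols 1.81% held the box in any promoter, as did 1.63% of all 32851 promoters of the same length. Among the 21 listed genes 2 held it. Both are shown here because they carry the SRF motif next to genes that rose; each line gives the 250 bases before the start on the gene's strand, with the box in capitals, at position -161 in Myl9 (chr2:156775214-156775463, plus strand) and -62 in Filip1l (chr16:57548992-57549241, plus strand).
Myl9: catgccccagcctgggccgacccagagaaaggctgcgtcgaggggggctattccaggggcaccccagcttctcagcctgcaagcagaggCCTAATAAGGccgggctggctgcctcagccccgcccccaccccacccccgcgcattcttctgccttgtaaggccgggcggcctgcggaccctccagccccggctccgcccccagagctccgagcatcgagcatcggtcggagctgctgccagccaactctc
Filip1l: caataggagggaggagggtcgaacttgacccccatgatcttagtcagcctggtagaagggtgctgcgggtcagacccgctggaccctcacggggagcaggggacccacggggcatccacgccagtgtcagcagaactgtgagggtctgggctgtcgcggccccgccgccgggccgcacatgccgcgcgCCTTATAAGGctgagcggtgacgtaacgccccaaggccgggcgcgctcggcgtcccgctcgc
Myl9, the smooth muscle myosin regulatory light chain, rose by 1.15 ± 0.24, from 938, 980 and 907 to 2164, 2440 and 1666. Filip1l rose by 1.19 ± 0.23, from 61.4, 53.0 and 58.0 to 140, 161 and 93.3. Neither gene's stages overlapped. A match of letters is a description of the window and not evidence of binding.

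Transcription factors and cofactors of smooth muscle had no common direction. Of 17 tested regulators 5 rose and 3 fell (1 without E14.5 replicate 3), with a median of 0.14. Srf itself lay at 104, 154 and 134 and then at 165, 160 and 106 (0.14 ± 0.18, adjusted p = 0.562). Myocd, the myocardin gene, lay at 95.5, 206 and 150 and then at 146, 87.0 and 69.1. Both genes overlapped between stages. The Myocd change of -0.58 ± 0.32 did not pass (adjusted p = 0.155), but it passed as lower without E14.5 replicate 1 (adjusted p = 0.0423) and without E18.5 replicate 1 (adjusted p = 0.031). The myocardin relatives Mrtfa (0.17 ± 0.13, adjusted p = 0.308) and Mrtfb (0.24 ± 0.13, adjusted p = 0.143) did not pass. Lpp, which encodes a focal adhesion protein of smooth muscle, rose by 2.33 ± 0.26 from 177, 193 and 134 to 1172, 834 and 527. Klf5 rose by 2.22 ± 0.45, and by 2.93 without E14.5 replicate 1, and Klf4, known as a repressor of contractile genes, rose by 1.15 ± 0.24 from 56.4, 124 and 67.0 to 198, 172 and 179. Foxf1, a Hedgehog-responsive mesenchymal factor, fell by 1.39 on the log2 scale (SE 0.23, adjusted p = 0.000463) from 124, 245 and 237 to 82.0, 80.6 and 69.3.

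**Figure D3:**
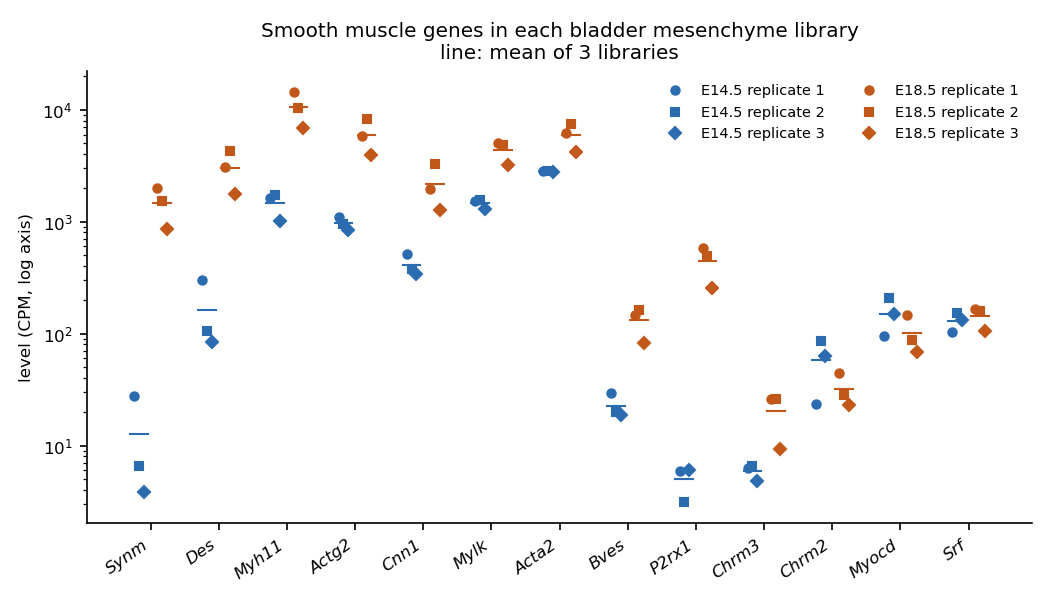
Level (CPM, log axis) of smooth muscle genes in each of the 6 bladder mesenchyme libraries; blue is E14.5, orange E18.5, symbols give the replicate and the short line the mean of 3 libraries. Contractile, Popeye and purinergic receptor genes are higher in every E18.5 library, whereas Chrm2, Myocd and Srf overlap between stages.

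Receptors and channels through which nerves and stretch act on the detrusor were more divided. Of 39 tested genes 20 rose and 5 fell, with a median of 0.48. P2rx1, the ATP-gated channel of detrusor muscle, went from 5.90, 3.11 and 6.05 to 581, 497 and 253 (6.47 ± 0.39, adjusted p = 2.61e-06). Its lowest E18.5 library lay far above its highest E14.5 library. Chrm3, the muscarinic receptor that drives bladder contraction, rose by 1.79 ± 0.35 (adjusted p = 0.00119) from 6.26, 6.55 and 4.80 to 25.8, 25.9 and 9.34. Chrm2, the other muscarinic receptor of bladder muscle, overlapped between stages at 23.5, 85.8 and 63.7 against 44.3, 28.3 and 22.8 (-0.86 ± 0.50, adjusted p = 0.185). It passed as lower without E14.5 replicate 1 (adjusted p = 0.0356). Adrb3, the receptor for relaxing beta-agonists, lay near 1 CPM at both stages (0.01 ± 0.52, adjusted p = 0.985).

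Peptide receptors gave 2 of the largest changes of this group. Npy6r, a receptor of the neuropeptide Y family, went from 0.457, 0 and 0.26 to 60.3, 60.9 and 16.6 (7.59 ± 0.99, adjusted p = 0.000149). Tacr2, the neurokinin receptor of visceral muscle, went from 0.823, 0.166 and 0.173 to 16.97, 12.01 and 10.1 (5.08 ± 0.62, adjusted p = 6.06e-05), and by 6.24 without E14.5 replicate 1. The Npy6r change was 8.45 without that library and 6.99 without E14.5 replicate 2. Both genes were under 1 CPM in every E14.5 library and above 10 CPM in every E18.5 library. Among calcium and potassium handling genes, Casq2 (4.92 ± 0.80, and 5.58 without E14.5 replicate 1), the sarcoplasmic calcium buffer, Ryr3 (2.74 ± 0.48), the channel subunits Kcnma1 (1.78 ± 0.34) and Kcnmb1 (1.88 ± 0.23), the calcium pump gene Atp2a2 (1.35 ± 0.20) and the L-type channel gene Cacna1c (0.81 ± 0.25) rose. The genes that fell included Ednra, an endothelin receptor (-1.42 ± 0.26), from 69.3, 35.9 and 43.0 to 17.9, 22.4 and 15.1 and the gap junction gene Gjc1 (-1.06 ± 0.14).

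Membrane proteins of caveolae and the Popeye family, which shape the muscle cell surface, rose in most cases, with 7 of 9 higher and 0 lower at a median of 1.85. Bves went from 29.2, 19.9 and 18.9 to 148, 164 and 81.7 (2.53 ± 0.25, adjusted p = 1.68e-05). Cav1, the main caveolin, went from 597, 509 and 502 to 1970, 2045 and 1231 (1.71 ± 0.30, adjusted p = 0.000687). Neither gene overlapped between stages. Cavin3 (0.49 ± 0.26, adjusted p = 0.137) and Cavin2 (-0.11 ± 0.23, adjusted p = 0.73) did not pass.

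Matrix genes rose in most classes, with the basement membrane the most uniform. Of its 23 tested genes 19 rose and 0 fell, at a median of 1.37. Col15a1, a collagen beneath muscle and vessels, went from 92.4, 93.2 and 58.2 to 645, 619 and 371 (2.75 ± 0.29, adjusted p = 2.72e-05). Col4a1 went from 878, 1200 and 825 to 3397, 2613 and 1804 (1.43 ± 0.27, adjusted p = 0.00097), and the perlecan gene Hspg2 rose by 1.37 ± 0.24. The stages of all 3 genes were separate. Lamb3 (4.36 ± 0.58) and Lama3 (3.81 ± 0.53), which encode chains of an epithelial laminin, changed most. In E14.5 replicate 1, the library with the most epithelial RNA, Lamb3 stood at 8.14 CPM against 1.70 and 1.77 in its fellows, and without it the Lamb3 and Lama3 changes were 5.52 and 4.77.

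Interstitial collagens changed less and less firmly. Of 19 tested genes 12 rose and 2 fell, with a median of 0.60, and the number that rose fell to 5 without E14.5 replicate 3. Col1a1, the main fibrillar collagen gene, went from 6094, 9217 and 6138 to 11840, 10460 and 9803 (0.58 ± 0.20, adjusted p = 0.0277). Col3a1 went from 5861, 7084 and 6048 to 10330, 9936 and 8589 (0.60 ± 0.20, adjusted p = 0.0246). The stages did not overlap for either gene, yet each call was lost when any of several single libraries was left out, among them E14.5 replicate 1 (adjusted p = 0.0951 for Col1a1 and 0.0696 for Col3a1) and E14.5 replicate 3 (0.117 and 0.0832). Col5a3 rose by 4.11 ± 0.47 from 12.02, 10.6 and 2.64 to 160, 145 and 130, and Col6a3 rose by 1.71 ± 0.25. Col2a1, the cartilage collagen gene, fell by 4.90 on the log2 scale (SE 0.67, adjusted p = 0.000161) from 8.55, 5.84 and 2.68 to 0.15, 0.322 and 0.128. It was joined by Col9a1 (-3.34 ± 0.46), Col9a2 (-1.69 ± 0.23) and Col9a3 (-1.71 ± 0.30), whose products assemble with it in cartilage, while Sox9, the cartilage master regulator, rose by 1.12 ± 0.32, a call lost without E14.5 replicate 2 (adjusted p = 0.0528) or 3 (0.0587) or E18.5 replicate 3 (0.067).

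Elastic fibre genes split, with 7 of 21 higher and 6 lower, and 4 higher without E14.5 replicate 3. Eln, the elastin gene, ranged widely at E14.5, at 1108, 235 and 718, against 1343, 1504 and 999 at E18.5 (0.90 ± 0.49, adjusted p = 0.156), and it passed only without E14.5 replicate 1 among the single libraries left out (adjusted p = 0.0309). Efemp1 rose by 2.29 ± 0.23, whereas Emilin1 (-1.27 ± 0.21), Mfap2 (-1.15 ± 0.16) and Ltbp1 (-0.76 ± 0.16) fell. Proteoglycan and hyaluronan genes rose in 14 of 27 cases and fell in 5. Has1, a hyaluronan synthase, had 0 counts at E14.5 and 196 at E18.5, which makes it at least 58.9-fold higher, taking 3 counts over the E14.5 group as the floor. Tnxb (3.79 ± 0.46, and 4.38 without E14.5 replicate 1) and Prelp (2.91 ± 0.37) rose, while Vcan, the versican gene of loose embryonic matrix, fell from 405, 749 and 516 to 240, 280 and 178 (-1.26 ± 0.26, adjusted p = 0.00183) together with its link proteins Hapln1 (-1.86 ± 0.37) and Hapln3 (-2.14 ± 0.33).

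Fibroblast genes changed in every member measured: 20 of 24 rose and 4 fell, at a median of 1.20. The number that rose was 16 without E14.5 replicate 3, and the number that fell was 3 without E18.5 replicate 3. Clec3b, which encodes the secreted lectin tetranectin, went from 2.01, 1.20 and 0.26 to 178, 242 and 169 (7.41 ± 0.72, adjusted p = 3.04e-05). Ly6a, a surface antigen of adventitial progenitor cells, went from 1.14, 0.414 and 0.605 to 35.8, 32.8 and 26.9 (5.47 ± 0.47, adjusted p = 9.42e-06). Pi16, a marker of universal fibroblasts, went from 12.2, 4.64 and 5.15 to 124, 144 and 92.6 (4.04 ± 0.62, adjusted p = 0.000441). These 3 genes were low in all E14.5 libraries and high in all E18.5 libraries, and without E14.5 replicate 1 the Clec3b and Pi16 changes were 8.05 and 4.63. The members that fell were the secreted Wnt antagonists Sfrp1, from 260, 245 and 289 to 78.7, 84.3 and 72.5 (-1.75 ± 0.17, adjusted p = 1.68e-05), and Sfrp2, from 443, 464 and 459 to 205, 172 and 213 (-1.21 ± 0.21, adjusted p = 0.000575), with Pdgfra (-0.78 ± 0.17) and Cxcl12 (-0.51 ± 0.15).

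Complement genes held the largest increase by the rule for named genes. C3, the central complement component, went from 1.92, 0.58 and 1.04 to 694, 435 and 456 (8.82 ± 0.43, adjusted p = 1.18e-06). All 3 E18.5 libraries lay far above all 3 E14.5 libraries. Of 19 tested complement genes 13 rose and 1 fell, at a median of 1.21. C7 (3.17 ± 0.34), C1ra (2.90 ± 0.54) and C4b (3.21 ± 0.51, and 3.96 without E14.5 replicate 1) rose, and Cfb had 3 counts at E14.5 and 63 at E18.5, a ratio of 18.9 (95% exact binomial interval 6.19 to 94.3, counting error only). The gene that fell was Masp1, which encodes a lectin pathway protease, from 62.9, 66.0 and 103 to 6.80, 9.76 and 7.58 (-3.27 ± 0.26, adjusted p = 7.69e-06).

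Immune genes rose beside them. Of 24 antigen presentation and interferon genes 19 rose and 0 fell, at a median of 1.34, led by the peptide transporter genes Tap2 (2.81 ± 0.25), from 4.25, 5.14 and 3.20 to 35.02, 25.2 and 28.1, and Tap1 (2.26 ± 0.22). B2m, the shared light chain of class I molecules, did not pass, at 80.1, 93.7 and 98.3 against 111, 105 and 94.1 (adjusted p = 0.392). Macrophage markers rose in 8 of 21 cases and fell in 0, with Cd163 from 1.74, 1.29 and 0.26 to 40.0, 38.9 and 27.8 (5.02 ± 0.75, adjusted p = 0.000315). The list of mast cell, granulocyte and lymphoid markers gave 5 of 10 tested genes higher and 1 lower, with 11 of its 21 genes too low to test, and its summed level overlapped between stages. The mast cell protease gene Mcpt4 had 0 counts at E14.5 and 169 at E18.5, at least 50.8-fold higher. Cma1 (5.00 ± 0.74, and 5.66 without E14.5 replicate 1) and Cpa3 (3.33 ± 0.42) rose, whereas the receptor gene Kit fell by 2.09 on the log2 scale and the enzyme gene Hdc did not pass (1.00 ± 0.79, adjusted p = 0.325).

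Cell division genes fell, most uniformly those of DNA replication. All 37 tested replication genes were lower at E18.5, at a median of -1.18, and for 36 of them the stages did not overlap. Their summed level went from 3645, 4783 and 4856 to 2204, 1905 and 2115. Mcm5, a subunit of the replicative helicase, went from 204, 288 and 299 to 102, 82.5 and 93.4 (-1.51 ± 0.15, adjusted p = 1.91e-05). Chaf1b, a subunit of chromatin assembly factor 1, went from between 47.8 and 61.6 to between 15.2 and 20.4 (-1.58 ± 0.14, adjusted p = 8.97e-06). Gins1, a cofactor of the helicase, changed most (-1.82 ± 0.19) and Cdc6, which loads the helicase, least (-0.63 ± 0.20, adjusted p = 0.0228). The range from -1.82 to -0.63 over all 37 genes is narrow beside that of the muscle list, which ran from 0.34 to 6.85.

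E2F motifs were counted in the promoters of this list, taking TTTGGCGC, TTTCCCGC and TTTCGCGC on both strands in the same window; occurrences may overlap. Of the 37 genes, 30 had a promoter in the RefSeq table (GRCm38.p6), and those without one included Gins1 and Gins2. Of all 27025 gene symbols 2.12% held a motif in any promoter, as did 1.84% of all 32851 promoters. Among the 30 listed genes 15 held a motif. For 5 of the 15 (Mcm3, Lig1, Pold1, Cdt1 and Pole2) the motif lay only after the start. The lines below show 4 members with a motif before the start, chosen first by size of change, as the 250 bases before it on the gene's strand with each motif in capitals: Mcm5 (chr8:75109259-75109508, plus strand) with a pair of overlapping motifs at -153 and -149, Gins3 (chr8:95633309-95633558, plus strand) at -41, Mcm7 (chr5:138171884-138172133, minus strand) at -165 and Rfc3 (chr5:151651209-151651458, minus strand) at -10.
Mcm5: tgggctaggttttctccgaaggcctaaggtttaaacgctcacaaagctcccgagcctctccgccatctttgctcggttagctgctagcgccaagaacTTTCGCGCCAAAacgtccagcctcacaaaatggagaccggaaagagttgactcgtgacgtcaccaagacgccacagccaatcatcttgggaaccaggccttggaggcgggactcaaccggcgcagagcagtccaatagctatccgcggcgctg
Gins3: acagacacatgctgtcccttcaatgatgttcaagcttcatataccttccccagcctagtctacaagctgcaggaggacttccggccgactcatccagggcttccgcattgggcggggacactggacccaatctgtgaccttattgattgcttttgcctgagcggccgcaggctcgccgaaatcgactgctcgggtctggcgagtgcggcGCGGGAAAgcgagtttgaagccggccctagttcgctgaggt
Mcm7: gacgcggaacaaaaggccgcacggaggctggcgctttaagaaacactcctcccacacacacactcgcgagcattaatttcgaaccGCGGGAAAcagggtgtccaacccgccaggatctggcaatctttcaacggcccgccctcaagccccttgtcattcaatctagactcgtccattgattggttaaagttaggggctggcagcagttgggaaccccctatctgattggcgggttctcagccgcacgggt
Rfc3: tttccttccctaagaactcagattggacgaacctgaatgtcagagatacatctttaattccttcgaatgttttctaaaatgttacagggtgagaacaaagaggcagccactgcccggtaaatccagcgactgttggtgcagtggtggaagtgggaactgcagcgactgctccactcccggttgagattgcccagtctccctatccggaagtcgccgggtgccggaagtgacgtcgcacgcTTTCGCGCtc
Gins3 fell from 20.1, 28.5 and 31.1 to 10.8, 8.47 and 11.6 (-1.37 ± 0.19). Mcm7 fell from 195, 243 and 253 to 102, 86.1 and 103 (-1.25 ± 0.13), and Rfc3, a subunit of the clamp loader, from 52.9, 56.3 and 71.7 to 21.4, 26.8 and 31.6 (-1.18 ± 0.17). None of the 3 overlapped between stages.

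Mitosis genes were lower in 30 of 34 cases and higher in 0, at a median of -0.78. Cdk1, the mitotic kinase, went from 144, 168 and 205 to 75.8, 77.3 and 86.7 (-1.11 ± 0.13, adjusted p = 4.23e-05), and Birc5, the survivin gene, from 88.1, 117 and 125 to 49.0, 45.2 and 52.3 (-1.17 ± 0.14, adjusted p = 4.49e-05). Both separated the stages. Mki67, the usual proliferation marker, did not pass, at 255, 346 and 240 against 396, 282 and 322 (0.25 ± 0.18, adjusted p = 0.284), nor did Kif23, Cenpf and Cenpe. Among 16 genes that restrain the cycle 8 rose and 1 fell. Cdkn1a, which encodes the inhibitor p21, went from 10.9, 4.68 and 6.36 to 54.6, 70.0 and 71.2 (3.16 ± 0.46, adjusted p = 0.000315), and Rb1 rose by 1.38 ± 0.14. The gene that fell was Cdkn1c, an imprinted inhibitor (-0.71 ± 0.16).

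**Figure D4:**
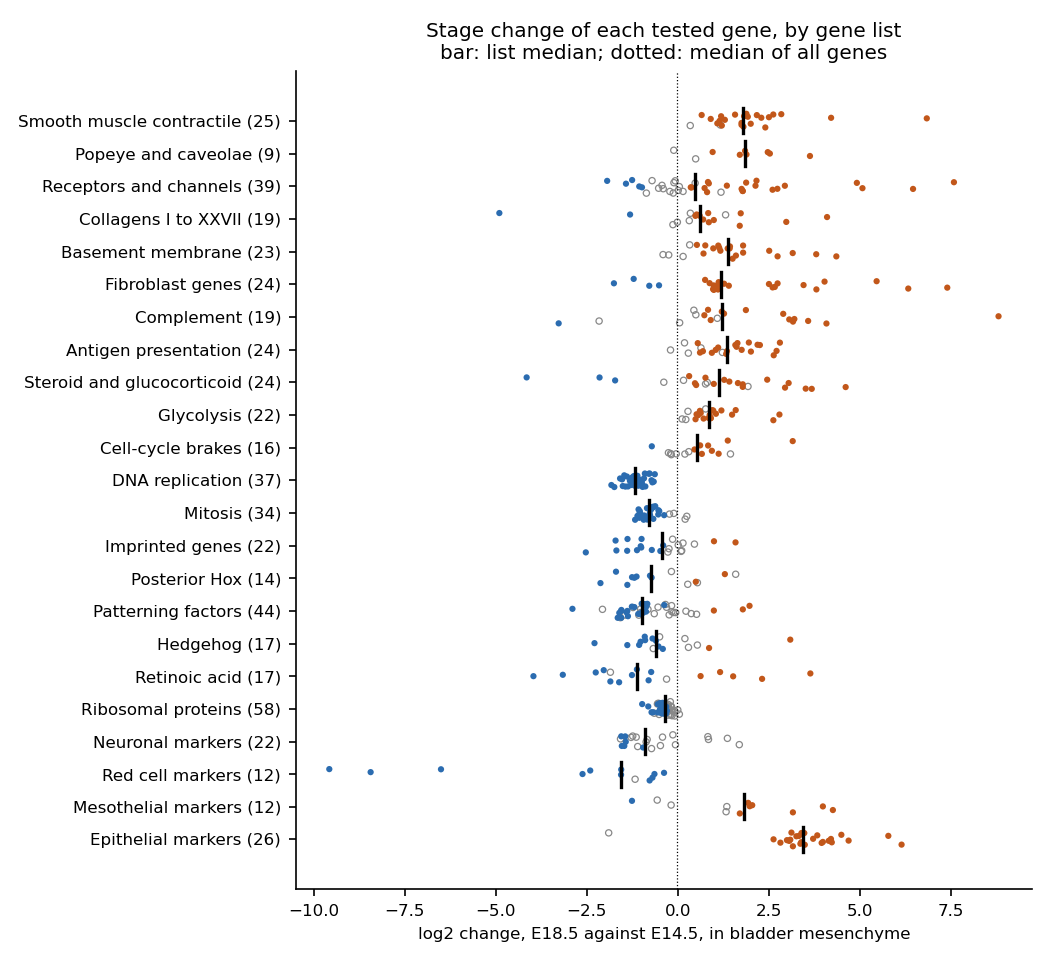
Log2 change of E18.5 against E14.5 in bladder mesenchyme for each tested gene of 23 lists, with the number tested in parentheses; orange genes were higher and blue genes lower at an adjusted p under 0.05, open circles did not pass, the bar is the list median and the dotted line the median of all genes. The smooth muscle, basement membrane and epithelial lists lie to the right of the line and the DNA replication and mitosis lists to the left, with medians of 1.81, 1.37, 3.44, -1.18 and -0.78.

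Genes of fetal growth and developmental timing were divided, with 6 of 14 lower and 3 higher at a median of -0.02. Hmga2, a chromatin protein of embryonic cells that is repressed by let-7, went from 125, 97.0 and 143 to 3.89, 5.52 and 3.42 (-4.85 ± 0.45, adjusted p = 2.1e-05). Mycn fell from 23.5, 17.7 and 20.8 to 7.55, 5.42 and 6.59 (-1.66 ± 0.16, adjusted p = 1.55e-05), and Igf2bp1, which binds Igf2 messenger RNA, fell by 1.07 on the log2 scale (SE 0.21). All 3 genes were separate between stages. Those that rose were Trim71 (2.32 ± 0.53), Nr6a1 (1.19 ± 0.33) and Arid3a (1.08 ± 0.17).

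Imprinted genes, many of which regulate fetal growth, were lower in 12 of 22 cases and higher in 2, at a median of -0.44. Igf2, the fetal growth factor, went from 205, 301 and 246 to 83.2, 80.7 and 70.0 (-1.69 ± 0.17, adjusted p = 1.7e-05). Mest went from 1069, 1350 and 1224 to 484, 493 and 414 (-1.39 ± 0.14, adjusted p = 1.72e-05), and Grb10, an inhibitor of insulin receptor signalling, from 1197, 1565 and 1630 to 746, 670 and 607 (-1.12 ± 0.15, adjusted p = 0.000106). These 3 genes showed no overlap. H19, the untranslated neighbour of Igf2, changed little, from 4229, 3914 and 4264 to 3355, 3125 and 2929 (-0.40 ± 0.13, adjusted p = 0.0204), and the call was lost without E14.5 replicate 1 or 3 or E18.5 replicate 3. Meg3 (1.59 ± 0.55, adjusted p = 0.0359) and Rtl1 (1.00 ± 0.23), both of the Dlk1 cluster, rose, but the Meg3 call was lost when most single libraries were left out. Igf2r did not pass, with a change of 0.01 ± 0.18. Of the binding proteins for insulin-like growth factors, Igfbp7 (2.70 ± 0.45), Igfbp6 (2.61 ± 0.58) and Igfbp2 (1.96 ± 0.55) rose. Without E14.5 replicate 1 the Igfbp6 and Igfbp2 changes were 3.30 and 2.71, and the Igfbp2 call was lost without E18.5 replicate 2 (adjusted p = 0.0595). Igfbp4 fell from 681, 675 and 642 to 351, 308 and 296 (-1.06 ± 0.17, adjusted p = 0.000289).

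Patterning transcription factors fell more often than they rose, with 21 of 44 lower and 3 higher at a median of -0.97. The number that fell was 14 without E18.5 replicate 3 and 17 without E14.5 replicate 1. Meis2, a homeobox factor of the mesenchyme, went from 314, 360 and 360 to 113, 109 and 108 (-1.65 ± 0.10, adjusted p = 2.1e-06). Six2 went from 7.36, 4.64 and 3.42 to 0.486, 0.697 and 0.864 (-2.89 ± 0.36, adjusted p = 7.52e-05). Both were separate between stages, and so was Eya4 (-1.55 ± 0.20), a transcription cofactor. Isl1, which marks the early bladder mesenchyme and also neurons, fell by 1.55 on the log2 scale (SE 0.41, adjusted p = 0.00981), but by 0.75 without E14.5 replicate 1, the library with the most neuronal RNA. The 3 that rose were Tbx2 (0.99 ± 0.20), Gata3 (1.97 ± 0.33) and Msx2 (1.79 ± 0.41), of which Gata3 is also a urothelial gene. Gata3 and Msx2 rose by 2.58 and 2.48 without E14.5 replicate 1, and 5 members of the list rose. Tcf21 did not pass (-0.24 ± 0.19, adjusted p = 0.319).

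Posterior Hox genes, which set position along the trunk, fell in 8 of 14 cases and rose in 2. The D cluster led: Hoxd13 went from 76.5, 77.4 and 86.7 to 26.3, 25.4 and 22.6 (-1.70 ± 0.14, adjusted p = 7.65e-06) and Hoxd12 from 31.7, 25.6 and 32.7 to 6.24, 6.49 and 7.87 (-2.12 ± 0.20, adjusted p = 1.5e-05). Neither overlapped. Hoxa9 rose by 1.30 ± 0.26 from 23.9, 13.9 and 13.5 to 34.9, 41.1 and 50.0, and Hoxa10 by 0.50 ± 0.17, a call lost when any of several single libraries was left out. Hoxa13 did not pass, at 63.5, 73.4 and 69.2 against 68.0, 58.9 and 56.0 (adjusted p = 0.355). Without E14.5 replicate 1 the list gave 5 lower and 4 higher.

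Hedgehog signalling genes were lower in 10 of 17 cases and higher in 2, or 4 without E14.5 replicate 1. The ligand gene Shh, which the epithelium expresses, rose by 3.09 ± 0.59 from 31.8, 11.9 and 3.20 to 131, 101 and 168, or by 4.15 without that library, and it sits in the epithelial list that rose with stage. Downstream of the ligand, the receptor gene Ptch1, itself a target, overlapped between stages at 169, 363 and 228 against 211, 155 and 173 (-0.50 ± 0.24, adjusted p = 0.116). The target genes Gli1 (-0.69 ± 0.23) and Foxl1 (-1.02 ± 0.27) fell, as did the transducers Smo (-0.53 ± 0.13), Gli2 (-0.41 ± 0.13) and Gli3 (-0.89 ± 0.21). Hhip, a target that binds and restrains the ligand, rose instead, from 29.5, 33.9 and 28.8 to 56.5, 66.6 and 44.7 (0.86 ± 0.23, adjusted p = 0.00791).

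Retinoic acid genes fell in 10 of 17 cases and rose in 5, at a median of -1.12. Those that fell span uptake, synthesis, binding, response and also breakdown, the last with the enzyme gene Cyp26b1. Stra6, which takes up retinol, went from 34.3, 19.1 and 22.2 to 0.635, 3.27 and 1.22 (-3.96 ± 0.43, adjusted p = 4.71e-05), and the change was -4.74 without E18.5 replicate 2. Crabp2, which carries retinoic acid to its receptors, went from 28.8, 24.8 and 27.3 to 2.50, 3.49 and 3.10 (-3.16 ± 0.17, adjusted p = 1.18e-06). Aldh1a2, the mesenchymal enzyme that makes retinoic acid, went from 255, 195 and 338 to 120, 95.8 and 113 (-1.26 ± 0.22, adjusted p = 0.000564), and Rarb, a receptor gene that is itself a target, fell by 1.85 on the log2 scale (SE 0.16). All of these separated the stages. Rbp4 (3.65 ± 0.47), which carries retinol in blood, Aldh1a1 (2.32 ± 0.45), Dhrs3 (1.52 ± 0.21) and the receptor genes Rxra (1.17 ± 0.19) and Rarg (0.63 ± 0.15) rose.

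Wnt, BMP and TGF-beta genes were divided: 9 of 35 Wnt genes rose and 12 fell, as did 11 and 7 of 29 BMP genes and 6 and 4 of 20 TGF-beta genes. FGF genes rose in 9 of 21 cases and fell in 2, at a median of 0.64. The count of BMP genes that fell was 4 without E14.5 replicate 3. The number of Wnt genes that rose was 14 without E14.5 replicate 1. The Wnt enhancer Rspo1 rose by 2.05 ± 0.39, and its relatives Rspo3 (-2.02 ± 0.51) and Rspo2 (-2.30 ± 0.54) fell. Without E14.5 replicate 1 these changes were 2.68, -1.26 and -1.32, and the Rspo2 call was lost with limma-voom (adjusted p = 0.0515). The BMP ligand gene Bmp3 went from 88.7, 112 and 40.1 to 394, 295 and 332 (2.09 ± 0.38), and Bmper, which binds BMPs outside the cell, from 38.9, 40.7 and 74.0 to 7.03, 11.1 and 8.38 (-2.54 ± 0.29). Stages were separate for both. Fgf7, a mesenchymal growth factor for epithelium, rose by 2.35 ± 0.56, and by 3.44 without E14.5 replicate 1.

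Steroid and glucocorticoid genes rose in 16 of 24 cases and fell in 3, at a median of 1.13. Among glucocorticoid targets, Zbtb16 went from 2.15, 1.66 and 1.47 to 40.1, 38.9 and 50.5 (4.62 ± 0.40, adjusted p = 9.7e-06) and Klf9 from 16.1, 9.78 and 7.14 to 92.7, 89.5 and 90.7 (3.05 ± 0.31, adjusted p = 2.55e-05). The enzyme gene Hsd11b1, whose product regenerates active glucocorticoid, rose from 2.24, 1.74 and 0.995 to 14.6, 22.5 and 20.0 (3.52 ± 0.50), and Hsd11b2, whose product inactivates it, fell from 20.6, 20.0 and 21.8 to 3.74, 6.597 and 3.84 (-2.15 ± 0.37, adjusted p = 0.000569). The pair moved in opposite directions without overlap. The receptor gene Nr3c1 rose by 0.51 ± 0.15, and Sgk1, another target, did not pass (0.16 ± 0.20, adjusted p = 0.526). The estrogen receptor gene Esr1 did not pass (adjusted p = 0.449), with E14.5 replicate 1 high, at 17.1 against 1.08 and 2.77.

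Among the remaining cell types, pericyte genes rose in 6 of 12 cases and fell in 2, the latter count being 0 without E14.5 replicate 1. Those that rose included Rgs5 (2.07 ± 0.48), from 133, 49.9 and 72.9 to 202, 441 and 431. Endothelial genes fell in 5 of 20 cases, near the share of all genes (22%), and in 8 without E14.5 replicate 1. The 2 that rose were the lymphatic-associated Lyve1 (1.51 ± 0.29) and Pdpn (1.75 ± 0.19). Of the other lymphatic genes in the list, Flt4 fell (-1.395, adjusted p = 0.00056) and Prox1 did not pass. Interstitial cell markers split: Kit fell from 35.6, 89.7 and 54.7 to 16.97, 10.1 and 14.98 (-2.09 ± 0.29, adjusted p = 0.000137) and Etv1 by 1.82 on the log2 scale (SE 0.20), while the chloride channel gene Ano1 rose from 71.4, 49.0 and 61.0 to 227, 139 and 197 (1.63 ± 0.19). Embryonic globins were close to 0 at E18.5, with Hbb-y from 16.2, 150 and 132 to 0.075, 0.161 and 0.544 (-8.44 ± 1.45, adjusted p = 0.000857, but 0.107 with limma-voom) and Hbb-bh1 at 239 and 0 counts, at least 88.3-fold lower, whereas adult Hbb-bs fell by only 0.77 on the log2 scale. The skeletal actin gene Acta1 went from 238, 17.7 and 10.1 to 3463, 3692 and 2342 (5.16 ± 1.39, adjusted p = 0.0112), and by 7.84 without E14.5 replicate 1. Ckm, the muscle creatine kinase, changed by 6.70 ± 1.32, and by 12.7 without that library.

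Glycolysis genes rose in 18 of 22 cases and fell in 0, at a median of 0.86, led by Eno3 (2.80 ± 0.35) and Pfkp (2.63 ± 0.42, and 3.22 without E14.5 replicate 1). The list also counts the growth factor gene Vegfa, which rose by 1.49. Without E14.5 replicate 2 the number that rose was 13. Of 56 oxidative phosphorylation genes encoded in the nucleus 2 rose and 10 fell, and of 58 ribosomal protein genes 0 rose and 24 fell at a median of -0.35. Both counts of falls depended on single libraries, ranging from 3 to 13 and from 7 to 29 as each bladder library was left out, lowest without E14.5 replicate 3; without E14.5 replicate 1 they were 6 and 9. In the fat storage list 9 of 15 tested genes rose and 1 fell, with 6 of its 21 genes too low to test. Fabp4, a lipid carrier of adipocytes and capillaries, went from 17.1, 8.58 and 7.22 to 193, 526 and 487 (5.20 ± 0.65). Plin2 fell (-0.65, adjusted p = 0.00388).

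Urethral mesenchyme of the same stages showed which of these changes differed between compartments. The change was higher in bladder than in urethral mesenchyme for 873 genes (4.64%) and lower for 758 (4.03%), and 31 and 53 of these passed the stage test in both compartments in opposite directions. The genes that passed the stage test as higher in both compartments numbered 1731, whether or not the sizes of the changes differed. These counts moved with single libraries: 1505 genes were higher without bladder E14.5 replicate 1, 502 without bladder E14.5 replicate 3, 546 without bladder E18.5 replicate 1, and 504 to 577 without urethral E14.5 replicate 3 or any urethral E18.5 library. Lower genes numbered 497 without bladder E14.5 replicate 3 and 470 to 493 without urethral E14.5 replicate 3 or E18.5 replicate 2 or 3. In simulated data the 2-fold changes recovered were 19.4% for this difference and 43.4% for the bladder stage change. Far fewer genes were changed there than were called for the bladder stages here, so these rates need not hold for these data.

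Smooth muscle stood on one side of that difference. In the contractile list 16 of 25 genes had a higher change in bladder and 0 a lower one, and the median urethral change was 0.17. Actg2 stood at 294 and then 221 CPM on average in urethral mesenchyme (-0.41), so its change differed by 3.04 ± 0.44 (adjusted p = 0.00291). For Myh11 the urethral means were 561 and 658 and the difference 2.62 ± 0.50 (adjusted p = 0.00872). Synm differed by 4.96 ± 0.98 (adjusted p = 0.0124), P2rx1 by 4.33 ± 0.59 (adjusted p = 0.00237) and Bves by 3.42 (adjusted p = 0.000727). Acta2 missed the threshold at a difference of 1.24 ± 0.36 (adjusted p = 0.0506). Tacr2 and Npy6r hardly appeared in the urethra, with means of 0.277 and 0.313 CPM at E18.5, against 13.03 and 45.9 in the bladder.

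Imprinted genes lay on the other side. Their change was lower in bladder for 11 of 22 genes and higher for 0, with a median urethral change of 0.24. Mest averaged 757 and 751 CPM in urethral mesenchyme (-0.01), and the difference was -1.38 ± 0.19 (adjusted p = 0.00226). Igf2 differed by -1.50 (adjusted p = 0.00327), Peg10 by -2.23 (adjusted p = 0.00413), Dlk1 by -1.59 (adjusted p = 0.00237) and Cdkn1c by -1.06 (adjusted p = 0.0133). Sfrp1, which fell in the bladder, changed by 0.52 in the urethra, a difference of -2.27 (adjusted p = 0.000773). DNA replication differed little by contrast: 2 of 37 genes had a lower change in bladder, namely Chaf1b (-0.84, adjusted p = 0.018) and Gins2 (-0.99, adjusted p = 0.0167), of which Gins2 overlaps opposite-strand exons over 67.3% of its exon length. The median changes were -1.18 in bladder and -0.79 in urethral mesenchyme. In the fibroblast list 1 gene was higher and 2 were lower by this test, and Clec3b changed by 7.41 and 6.75 in the 2 compartments (adjusted p of the difference 0.806).

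**Figure D5:**
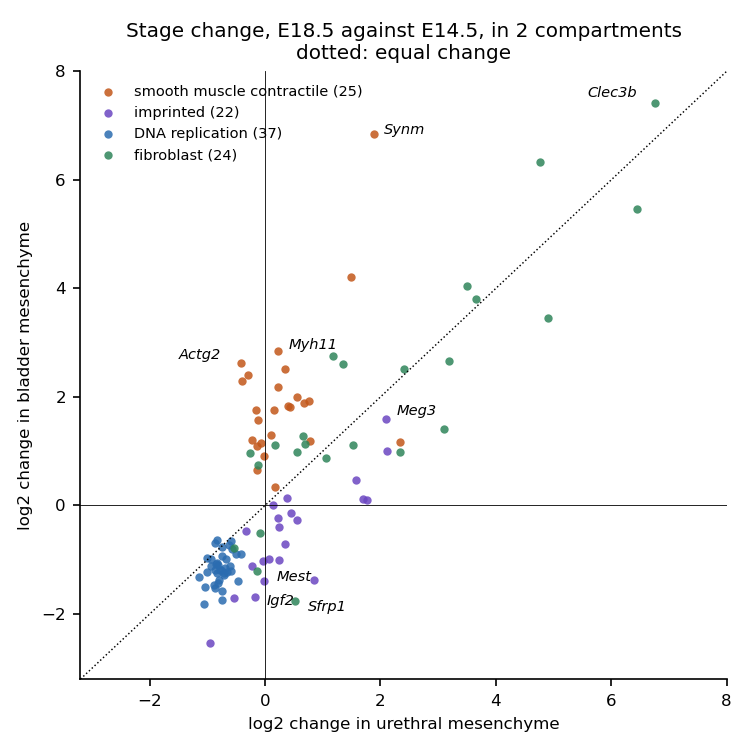
Log2 change of E18.5 against E14.5 in bladder mesenchyme (vertical axis) against that in urethral mesenchyme (horizontal axis) for the tested genes of 4 lists; the dotted line marks equal change. Most smooth muscle contractile genes lie above the line, with a median of 0.17 on the urethral axis, imprinted genes mostly below it, and DNA replication genes are negative on both axes.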

How the data were processed

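Poly(A)-selected libraries were made with a directional kit, per the labels' protocols. Per the submitters' processing notes, bcl2fastq, HISAT2 2.2.1, SAMtools 1.9 and GRCm38 were used; which program counted reads, whether by strand and on which annotation is not given in the sources used here. The authors deposited unnormalized raw counts, by gene symbol, in 1 table per stage, and per the file headers each row carries exon coordinates and length. Values of 2 were 2.06 to 2.51 times as frequent as values of 1, a pattern that counting the mates of a pair singly would give. The 37 mitochondrial genes held 0 counts.

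The tables were joined on gene symbol (55228 genes) and filtered with edgeR 4.0.16 filterByExpr (minimum count 10), leaving 18805 genes. One robust quasi-likelihood model of 4 group means over 12 libraries (8 residual degrees of freedom, TMM scaling, R 4.3.3) gave the bladder stage change, the urethral one and their difference, each with Benjamini-Hochberg adjustment over all tested genes and a threshold of 0.05. Intervals and floors of 3 counts cover counting error only. On simulated data edgeR recovered 43.4% of 2-fold and 70.1% of 4-fold bladder stage changes on 18458 genes, with 7.5% false calls. The simulation changed a far smaller share of genes than was called here, so these rates need not hold for these data.

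The comparison, the 45 gene lists and the tests were chosen with earlier results of these data known, and lists were described by counts and medians with no set test. Named genes are the 12 with the largest change per direction (at least 5 CPM, no overlap), the 8 with the largest difference in level, up to 4 leading and 2 opposite members of each list with its most abundant member that did not pass, and the 8 largest differences from the urethra per direction; other list members were named after their values were seen. Predicted genes were left out, and some list members are not reported here. Alternatives were DESeq2 1.42.0, limma-voom (limma 3.58.1), median-ratio size factors, no or a stricter filter, only the bladder libraries, a replicate block and leaving out libraries. Promoters came from RefSeq.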

Additional observations from a re-analysis of the deposited data

Results flagged for a closer look

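For 16 genes the change from E14.5 to E18.5 differed most between bladder and urethral mesenchyme by edgeR's test of the difference itself (adjusted p under 0.05). Values are the bladder log2 change minus the urethral one. The change was higher in bladder for Npy6r (6.67), Thrsp (6.54), Kcnf1 (5.71), Hdc (5.00), Slc1a1 (4.99), Synm (4.96), Tacr2 (4.94) and Pilra (4.70). Thrsp, a regulator of fat synthesis, averaged 0.166 and 5.27 CPM in bladder and 0.792 and 0.264 in urethral mesenchyme at E14.5 and E18.5. Kcnf1, a silent potassium channel subunit, averaged 0.79 and 26.1 in bladder and 1.70 and 1.04 in the urethra. For Hdc, the histamine-forming enzyme, the bladder levels overlapped (3.35 and 6.66 on average), and the difference comes with a urethral fall from 38.6 to 2.41.

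The change was lower in bladder for Klhl31 (-7.07), Tnni1 (-6.72), Myod1 (-6.72), Mstn (-6.51), Fitm1 (-6.10), Myog (-6.00), Myf5 (-5.92) and Pitx3 (-5.87). Apart from Pitx3 and Fitm1, which also occur elsewhere, these are genes of skeletal muscle and its precursors. Myog averaged 1.47 and 0.264 CPM in bladder and 9.88 and 122 in urethral mesenchyme. Tnni1, a slow troponin, averaged 9.03 and 1.11 in bladder and 5.50 and 70.3 in the urethra. Klhl31 and Fitm1 each had 2 counts in the E18.5 bladder libraries, giving ratios of 15.5 (95% exact binomial interval 3.91 to 135) and 8.32 (1.93 to 74.9) between the bladder stages. Pitx3 went from 9.51, 28.3 and 21.7 to 1.27, 1.23 and 0.928 in bladder mesenchyme.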

How the results depend on the processing

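The counts of genes higher and lower at E18.5 stayed within 1.5 times of 4461 and 4136 under every alternative run, from 3552 and 3085 without E14.5 replicate 3 to 4858 and 4424 without urethral E14.5 replicate 2. Of 6002 pairs of a named gene and an alternative, 5721 kept their call, 220 lost it, 61 gained it and 0 reversed. With replicate number as a block the bladder counts were 4271 and 3901 and the difference counts 728 and 653; with the block set within each stage the difference counts were 1063 and 831. Litters differ between stages, and same-numbered libraries of the 2 stages had deviation correlations of -0.149, -0.039 and -0.072. Between compartments the correlations were 0.191, -0.028 and 0.206 at E14.5, where 2 of 3 libraries matched their own number best, and 0.197, 0.193 and 0.286 at E18.5, where 3 of 3 did.

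The difference from the urethra was less stable. Leaving out single libraries gave 502 to 1505 genes with a higher bladder change (bladder libraries) and 504 to 923 (urethral libraries), and 497 to 917 and 470 to 865 genes with a lower one. DESeq2 gave 1324 lower. Without both E14.5 libraries of replicate 1 there were 1450 higher and 1076 lower. The cause was not tested. The block within each stage, the removal of both replicate 1 libraries and that of single urethral libraries were chosen after seeing the data. With 3 libraries per stage, changes under 2-fold are often missed, and levels near 3 counts carry wide counting error.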

Other observations

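Outside the lists, the largest increases at E18.5 included Sprr2a3, a cornified envelope gene, at 2.06, 0.663 and 0.086 CPM against 36.1, 275 and 107 (7.23 ± 1.16), and Adh7, an epithelial alcohol dehydrogenase, at 0.549, 0 and 0.216 against 11.9, 34.4 and 24.8 (6.55 ± 0.82). Ces2f, a carboxylesterase, went from 0, 0.166 and 0.043 to 11.7, 8.96 and 9.70 (7.05 ± 0.86). Lypd5 had 2 counts at E14.5 and 431 at E18.5, a ratio of 194 (95% exact binomial interval 53.5 to 1610). Without E14.5 replicate 1 Sprr2a3 and Adh7 changed by 8.51 and 7.75, and without E14.5 replicate 2 Ces2f changed by 8.57. Each rose by edgeR's test without overlap, and the epithelial markers rose in the same libraries; its part was not tested.

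The largest decreases outside the lists included Gabra5, a GABA receptor subunit, from 5.07, 6.05 and 5.62 to 0.037, 0.322 and 0.256 (-4.79 ± 0.52), and Sphkap, from 3.61, 12.3 and 9.04 to 0.523, 0.215 and 0.48 (-4.30 ± 0.52). Fndc3c1 fell from 6.49, 29.0 and 20.4 to 0.934, 0.858 and 1.02, while its urethral means were 19.6 and 17.9, a difference between compartments of -4.16 ± 0.63 (adjusted p = 0.00323). E14.5 replicate 1 was the lowest of its stage for all 3 genes.

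Immediate early genes, which respond within minutes to stimuli and to tissue handling, rose in 9 of 19 cases and fell in 0. Fos went from 5.12, 2.03 and 1.30 to 22.01, 17.5 and 31.8 (3.08 ± 0.44, and 3.84 without E14.5 replicate 1) and Junb from 12.6, 8.70 and 7.65 to 62.2, 60.6 and 73.0 (2.76 ± 0.26). The urethral changes were 2.37 and 2.14.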
